A study of Mus musculus with 6 samples.

Results

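Cytochrome P450 genes and the genes of steroid metabolism that work beside them were followed in mouse stromal-vascular cells that had received Prdm16. The members were the 93 rows of the count table whose symbol has the form of a P450 gene with a family number, a subfamily letter and a member number, plus 13 genes listed by symbol. Those were Por, Star, Hsd11b1, Hsd11b2, Hsd17b1, Hsd17b2, Hsd17b10, Hsd17b11, Hsd17b12, Srd5a1, Srd5a3, Fdx1 and Fdxr; a further listed gene was not analysed here. They made 106 of 24197 genes in the table. The cells were the stromal-vascular fraction of inguinal fat of C57BL/6 mice, grown in standard medium with no adipogenic induction recorded. As isolated, that fraction is a mixture of progenitors, fibroblasts, vascular and immune cells. In these libraries the vascular and immune markers Cdh5, Cldn5, C1qa and C1qb had 0 counts, while Tek, Egfl7 and Cd68 were read. One group of 3 libraries carried a Prdm16 retrovirus and the other group of 3 a control (puro) retrovirus. All were polyadenylated RNA. The sources used here give neither the age and number of the mice nor the promoter of the retrovirus. The labels do not say whether the replicates were separate cultures or animals. The p-values therefore set the difference between the groups only against the spread of these libraries within a group, and that spread may be technical.

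Cytochrome P450 enzymes are haem proteins that insert an oxygen atom into steroids, sterols, fatty acids, retinoids, vitamin D and foreign compounds. Those of the endoplasmic reticulum receive electrons from NADPH through the reductase Por, and those of mitochondria through the ferredoxin reductase Fdxr and the ferredoxin Fdx1. Hydroxysteroid dehydrogenases then oxidise or reduce single positions of the steroid and so switch a hormone on or off. In fat, Hsd11b1 is best known for regenerating active glucocorticoid inside the tissue, and Cyp1b1 is a P450 known from mesenchymal fibroblasts.

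The tested P450 genes went both ways, while the listed steroid enzymes and redox partners mostly rose a little. Large factors were frequent among the tested P450 genes, but they were in part fixed by the low-count filter, as given below. Of the 106 members, 36 had enough counts to be tested, 16 of them rose and 14 fell, and 6 did not pass. Calls were made at an adjusted p below 0.05 by edgeR's quasi-likelihood test over all 13805 genes tested. That is 83.3% of the tested members, beside 75.6% of all tested genes, and by direction 37.5% of all tested genes were higher and 38% lower. Every count over a list of genes below is to be read beside these shares. Among the 25 tested P450 genes 7 rose, 13 fell and 5 did not pass, and among the 11 tested listed genes 9 rose, 1 fell and 1 did not pass. A called log2 fold change of at least 1 in size was found for 14 of the 25 P450 genes and 2 of the 11 listed genes, beside 21.8% of all tested genes. For a size of at least 2 the counts were 11 and 1, beside 10.3%. The median log2 fold change, Prdm16 over puro, was 0.13 over the tested members and −0.0075 over all tested genes. Of the 36, 8 (22.2%, beside 5.35% of all tested genes) passed the low-count filter through 1 group alone and so had to differ. These were Cyp21a1, Cyp26a1, Cyp26c1, Cyp3a13, Cyp4b1, Cyp4f14, Hsd11b1 and Hsd11b2. Their p-values and lack of overlap given below are therefore descriptions. Genes of the related and marker lists met the same filter. Nr1h4, Pgr, Mc2r, Mc5r, Nr1i3, Acox2, Sult1a1 and Ephx2, among others named below, passed it through 1 group alone. Their directions and p-values, and the list counts that include them, are descriptions too. The counts over the 36 describe the list and are no evidence about it. The libraries of the groups did not overlap for 32 of the 36, beside 77.6% of all tested genes. CPM below is the usual depth-scaled count, taken on library totals after TMM scaling, fold changes are log2 values ± SE, and the 3 counts that a count of 0 allows in a library were worth 0.0852 to 0.104 CPM.

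**Figure D1:**
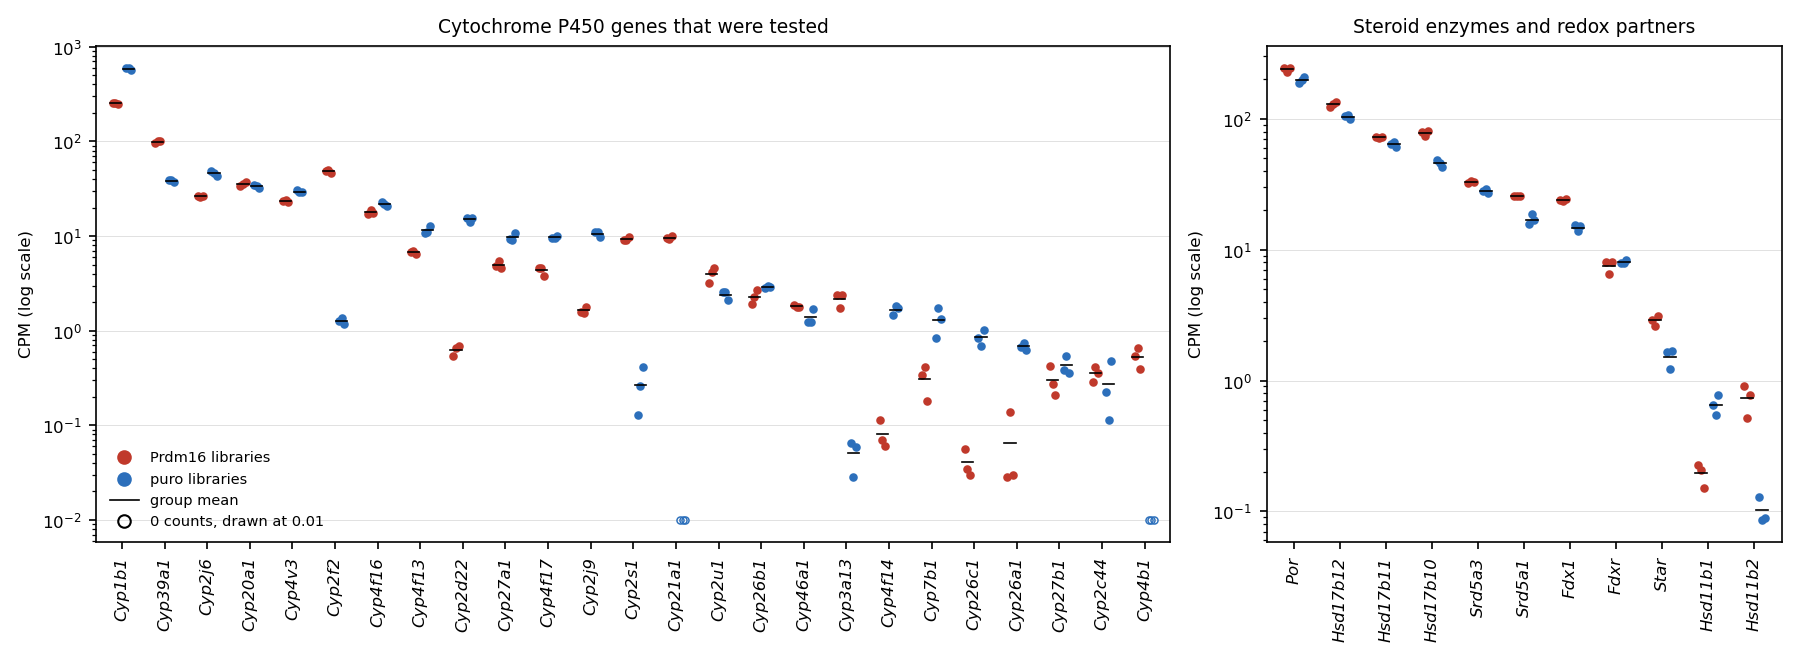
CPM on a log scale of the 25 tested P450 genes and the 11 tested listed genes in each library, with the Prdm16 libraries left of the puro libraries and a line at the mean of 3 libraries, drawn where all 3 held counts. Open points mark 0 counts, drawn at 0.01. Cyp1b1 had the highest CPM of the P450 genes in both groups, Cyp2f2, Cyp2s1 and Cyp21a1 were high in the Prdm16 libraries alone, and Cyp21a1 and Cyp4b1 had 0 counts in every puro library.

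The promoters of 81 members were matched in RefSeq (GRCm38.p6), with the first listed start used for a gene that has several. In the 250 bases before the start 3 motifs were searched on both strands: a retinoic acid response element of 2 direct half-sites, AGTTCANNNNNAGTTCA, the nuclear receptor half-site AGGTCA, and the core of the xenobiotic response element, GCGTG. None of these holds the letters of another. The first was held by 6 of 27025 promoters (0.0222%), 1 of them of a member, Cyp26a1. Only this form of retinoic acid element was searched, and it is the form that Cyp26a1 carries. The match and its rarity are therefore descriptions and no evidence about the gene. AGGTCA was held by 17 of the 81 members' promoters (21%) and by 13.8% of all promoters, and GCGTG by 20 of 81 (24.7%) and by 28.2% of all. The stretches shown are the retinoid element of Cyp26a1, which fell, and the promoters of Cyp2f2, which was 38.1-fold higher in the Prdm16 libraries, and of Cyp1b1, the P450 gene with the largest loss in CPM. Those of Cyp2f2 and Cyp1b1 cover positions −250 to −51 from the start, so the bases next to the start are not shown. Capitals mark the matches. The Cyp26a1 stretch is chr19:37697770-37697799 on the plus strand, the Cyp2f2 stretch chr7:27119705-27119904 on the plus strand and the Cyp1b1 stretch chr17:79715112-79715311 on the minus strand.
Cyp26a1: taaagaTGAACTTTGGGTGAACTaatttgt
Cyp2f2: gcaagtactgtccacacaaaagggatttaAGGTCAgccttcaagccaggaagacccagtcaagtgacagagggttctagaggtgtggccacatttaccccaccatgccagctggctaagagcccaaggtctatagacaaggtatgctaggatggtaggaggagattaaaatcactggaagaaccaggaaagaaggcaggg
Cyp1b1: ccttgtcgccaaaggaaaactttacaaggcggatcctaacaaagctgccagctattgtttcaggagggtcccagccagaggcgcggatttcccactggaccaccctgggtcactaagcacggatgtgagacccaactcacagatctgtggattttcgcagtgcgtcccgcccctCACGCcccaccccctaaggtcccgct
The element of Cyp26a1 lay 32 to 16 bases before the start in reverse orientation, the half-site of Cyp2f2 221 to 216 bases before it, and the core in Cyp1b1, also reversed, 76 to 72 bases before it. A match of letters is a description and does not show that a receptor binds there.

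In the steroid hormone pathway, Cyp21a1 and Star rose, and Cyp11a1 was too low to be tested. Cyp21a1, the steroid hydroxylase that makes the precursors of corticosterone and aldosterone in the adrenal cortex, had 333, 269 and 332 counts in the Prdm16 libraries, against 0, 0 and 0 counts in the puro libraries. In CPM these were 9.46, 9.29 and 9.94 in the Prdm16 libraries. Every Prdm16 library held reads and no puro library any, which puts the gene at least 317-fold higher when 3 counts are set for the puro group as a whole (edgeR adjusted p = 1.70e-09). The mouse genome carries a near-identical pseudogene copy, and 102 exonic bases overlap Tnxa on the other strand, so the count is uncertain where reads were shared. Star, which carries cholesterol to the inner mitochondrial membrane, had 2.93, 2.63 and 3.09 CPM in the Prdm16 libraries, against 1.64, 1.23 and 1.67 CPM in the puro libraries. It was higher in each Prdm16 library than in any puro library, with a log2 fold change of 0.93 ± 0.15 (edgeR adjusted p = 2.06e-04). Cyp11a1, which cleaves the side chain of cholesterol and opens the pathway, was too low to be tested, with 2 counts over the Prdm16 libraries against 12 over the puro libraries. The ratio was 0.170, with an exact 95% counting interval of 0.0185 to 0.763, and intervals and floors here cover counting error only. Without Prdm16 replicate 1, which held both of its counts there, no Prdm16 count was left.

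The mitochondrial electron chain that serves Cyp11a1 was split. The ferredoxin Fdx1 had 23.8, 23.5 and 24.2 CPM in the Prdm16 libraries, against 15.4, 13.8 and 15.1 CPM in the puro libraries, with no overlap between groups and a log2 fold change of 0.69 ± 0.060 (edgeR adjusted p = 1.03e-06). Its reductase Fdxr had 8.09, 6.56 and 8.03 CPM in the Prdm16 libraries, against 7.87, 7.97 and 8.28 CPM in the puro libraries. Here the groups overlapped, since Prdm16 replicate 2 was the lowest library and the other two Prdm16 libraries lay among the puro ones, and the log2 fold change was −0.083 ± 0.095 (edgeR adjusted p = 0.438). The later steps were nearly or wholly absent from the counts. Cyp17a1, which leads to androgens, Cyp19a1, the aromatase that makes oestrogens, and Hsd17b2, which inactivates oestradiol, had 0 counts in all 6 libraries. Cyp11b1, the last step to corticosterone, had 0 counts over the Prdm16 libraries and 2 over the puro libraries, and Cyp11b2, the aldosterone synthase, had 1 over the Prdm16 libraries and 0 over the puro libraries. A count of 0 in a library allows up to 3 counts there. Of the 6 Hsd3b genes of the hormone-forming and liver types in the related list, none had more than 1 count in all, and Hsd3b7, an enzyme of bile acid synthesis, had a log2 fold change of −0.22 ± 0.065 (edgeR adjusted p = 0.00920).

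Of 18 regulators and cholesterol carriers of steroid-forming cells, 12 were tested, 5 rose, 3 fell and 4 did not pass (all tested genes: 37.5% higher, 38% lower). The orphan receptors Nr4a1 and Nr4a2, immediate early genes that can drive steroid enzyme genes, rose, with log2 fold changes of 3.13 ± 0.066 (edgeR adjusted p = 1.03e-11) and 2.31 ± 0.12 (edgeR adjusted p = 1.27e-08). The mitochondrial pores Vdac2 and Vdac1 rose by 0.66 ± 0.033 and 0.39 ± 0.033, and the sterol carrier Stard4 by 0.34 ± 0.072. The 3 that fell were Acbd3, a Golgi protein that binds the cholesterol transport complex (−0.73 ± 0.041), the corticotropin receptor Mc2r (−3.28 ± 0.52) and the melanocortin receptor Mc5r (−2.07 ± 0.43). Mc2r had 2, 3 and 0 counts in the Prdm16 libraries, against 16, 21 and 16 counts in the puro libraries. All 3 Prdm16 libraries lay below all 3 puro libraries for it, but it passed the low-count filter through the puro group alone. Nr5a1, the master regulator of steroid-forming cells, was too low to be tested, with 5 counts over the Prdm16 libraries against 8 over the puro libraries, and Nr5a2, Nr0b1, Lhcgr and Fshr had 0 counts throughout. Among 10 markers of steroid-forming cells, the high-density lipoprotein receptor Scarb1 rose (0.48 ± 0.041), Dlk1 (−1.93 ± 0.19) and Mc2r fell, Inha, Insl3 and Amh did not pass, and Hsd3b1, Hsd3b6, Nr5a1 and Lhcgr held 0 to 8 counts over a group. Their summed level was 129 to 139 CPM in the Prdm16 libraries and 99.9 to 107 CPM in the puro libraries, almost all from Scarb1.

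The pair of enzymes that set the level of active glucocorticoid in a cell moved in opposite directions, both at low counts. Hsd11b1, which regenerates corticosterone from its inert ketone, had 8, 6 and 5 counts in the Prdm16 libraries, against 20, 19 and 26 counts in the puro libraries. Each Prdm16 library was below each puro library, the CPM averaged 0.195 ± 0.0402 CPM in the Prdm16 libraries and 0.655 ± 0.115 CPM in the puro libraries (SD, n = 3 each), and the log2 fold change was −1.73 ± 0.31 (edgeR adjusted p = 3.94e-04). Hsd11b2, which inactivates corticosterone and so shields the mineralocorticoid receptor in kidney, had 32, 15 and 26 counts in the Prdm16 libraries, against 4, 3 and 3 counts in the puro libraries. Here each Prdm16 library was above each puro library, with 0.735 ± 0.199 CPM in the Prdm16 libraries and 0.101 ± 0.0239 CPM in the puro libraries (SD, n = 3 each), and the log2 fold change was 2.85 ± 0.38 (edgeR adjusted p = 4.16e-05). H6pd, which supplies NADPH to Hsd11b1 inside the endoplasmic reticulum, averaged 96.5 ± 5.02 CPM in the Prdm16 libraries and 117 ± 3.98 CPM in the puro libraries (SD, n = 3 each), a fall of 0.28 ± 0.047 on the log2 scale.

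Receptors of steroids and vitamin D fell in 6 of 7 tested genes of a list of 8, beside 38% of all tested genes. The glucocorticoid receptor Nr3c1 had 123, 124 and 122 CPM in the Prdm16 libraries, against 222, 206 and 204 CPM in the puro libraries, and the mineralocorticoid receptor Nr3c2 1.25, 1.45 and 1.41 CPM in the Prdm16 libraries, against 3.64, 3.98 and 3.93 CPM in the puro libraries. Neither overlapped between groups, and the log2 fold changes were −0.78 ± 0.040 (edgeR adjusted p = 1.35e-08) and −1.50 ± 0.13 (edgeR adjusted p = 1.06e-06). The membrane oestrogen receptor Gper1 fell by 1.15 ± 0.070 on the log2 scale and the vitamin D receptor Vdr by 4.07 ± 0.062. The progesterone receptor Pgr had 1, 1 and 0 counts in the Prdm16 libraries, against 66, 84 and 64 counts in the puro libraries, 105-fold lower in the Prdm16 group with a counting interval of 28.7 to 872. The oestrogen receptor Esr1 was the only tested gene of the list that rose, at 0.42 ± 0.069 (edgeR adjusted p = 2.13e-04). Targets that glucocorticoid induces in many tissues did not follow 1 direction, with 6 of 9 tested higher, 2 lower and 1 not passing (all tested genes: 37.5% higher, 38% lower). Klf9 (0.98 ± 0.039), Angptl4 (0.96 ± 0.049) and the secreted protein Lcn2 (2.14 ± 0.18) rose, as did Dusp1 (0.74 ± 0.11), Tsc22d3 (0.30 ± 0.053) and Fkbp5 (0.21 ± 0.035). The kinase Sgk1 (−1.24 ± 0.067) and Errfi1 (−0.56 ± 0.041) fell, and the clock gene Per1 had −0.065 ± 0.074 (edgeR adjusted p = 0.440).

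**Figure D2:**
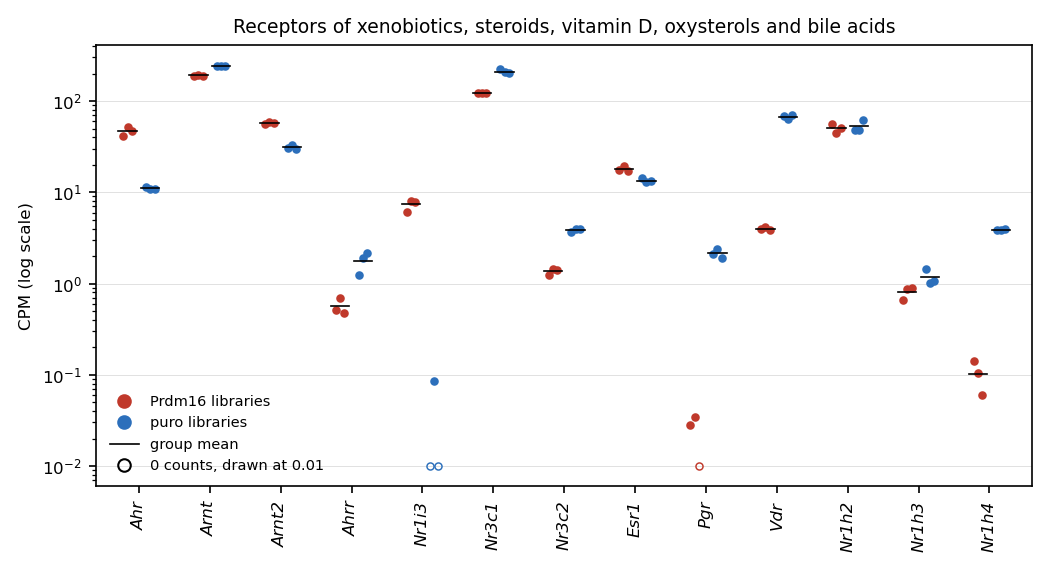
CPM on a log scale, in each library, of 13 receptors, partners and the repressor Ahrr, with the Prdm16 libraries left of the puro libraries and a line at the mean where all 3 libraries of a group held counts, and open points for 0 counts drawn at 0.01. Ahr and Nr1i3 were higher in all Prdm16 libraries, and Vdr, Pgr, Nr3c1, Nr3c2 and Nr1h4 lower.

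Hsd17b10, Hsd17b11, Hsd17b12 and the reductases Srd5a1 and Srd5a3 rose by small amounts. Hsd17b10, a mitochondrial enzyme of isoleucine breakdown that is also part of mitochondrial RNase P, had 79.1, 73.7 and 81.5 CPM in the Prdm16 libraries, against 48.4, 45.7 and 43.2 CPM in the puro libraries. It was the most strongly raised of them, with no overlap and a log2 fold change of 0.77 ± 0.052 (edgeR adjusted p = 1.26e-07). Hsd17b12, the ketoacyl reductase of fatty acid elongation, had 123, 129.5 and 134 CPM in the Prdm16 libraries, against 104, 108 and 99.4 CPM in the puro libraries, a log2 fold change of 0.31 ± 0.045 (edgeR adjusted p = 7.74e-05). Hsd17b11, a lipid droplet enzyme, had 73.2, 71.5 and 72.5 CPM in the Prdm16 libraries, against 64.5, 66.0 and 61.0 CPM in the puro libraries. Every Prdm16 library again lay above every puro library, by a log2 fold change of 0.18 ± 0.040 (edgeR adjusted p = 0.00179). Srd5a1, which converts testosterone to dihydrotestosterone, had 25.5, 25.8 and 25.8 CPM in the Prdm16 libraries, against 15.6, 18.6 and 16.7 CPM in the puro libraries, a log2 fold change of 0.60 ± 0.066 (edgeR adjusted p = 8.99e-06). Srd5a3, whose main substrate is the polyprenol used for protein glycosylation, had 32.1, 33.4 and 32.8 CPM in the Prdm16 libraries, against 28.3, 29.2 and 27.3 CPM in the puro libraries. The log2 fold change was 0.21 ± 0.048 (edgeR adjusted p = 0.00183). Exons of Srd5a1 share 476 bases with Gm17108 on the same strand, so its count is uncertain where reads were shared. Hsd17b11 and Srd5a3 lie on chromosome 5, whose tested genes had a median log2 fold change of 0.18, and with the median of each chromosome removed the calls ended, at 0.0017 (adjusted p = 0.972) and 0.033 (adjusted p = 0.543). Hsd17b1, which forms oestradiol, was too low to be tested, with 12 counts over the Prdm16 libraries against 19 over the puro libraries (ratio 0.644, counting interval 0.285 to 1.40).

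Beyond the members, 11 of 26 other hydroxysteroid and steroid-modifying enzymes could be tested, and 5 rose, 4 fell and 2 did not pass (all tested genes: 37.5% higher, 38% lower). Akr1c14, a hydroxysteroid dehydrogenase that reduces dihydrotestosterone and progesterone metabolites, had 309, 295 and 293 CPM in the Prdm16 libraries, against 124, 123 and 117 CPM in the puro libraries, a log2 fold change of 1.30 ± 0.038 (edgeR adjusted p = 1.22e-10). The cholesterol sulfotransferase Sult2b1 (1.89 ± 0.17), Hsdl2 (0.43 ± 0.045), Hsdl1 (0.34 ± 0.052) and the retinal reductase Rdh11 (0.19 ± 0.058) rose too. Dhrs9, a retinol and hydroxysteroid dehydrogenase (−1.46 ± 0.056), Hsd17b14 (−1.39 ± 0.21), H6pd and Hsd3b7 fell.

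Among P450 genes known for foreign compounds, Cyp1b1 fell and several genes with few counts in puro libraries rose. Cyp1b1, which hydroxylates oestrogens and polycyclic hydrocarbons, had 255, 254 and 251 CPM in the Prdm16 libraries, against 596, 591 and 566 CPM in the puro libraries. All Prdm16 libraries lay below all puro libraries, with a log2 fold change of −1.21 ± 0.034 (edgeR adjusted p = 7.82e-11). Cyp2f2, best known for activating naphthalene in the club cells of the airway, had 48.4, 50.4 and 46.5 CPM in the Prdm16 libraries, against 1.26, 1.38 and 1.16 CPM in the puro libraries. Raw counts were 1705, 1459 and 1554 in Prdm16 libraries against 39, 48 and 39 in puro libraries, so the gene was read in both groups, and it was 38.1-fold higher, a log2 fold change of 5.25 ± 0.080 (edgeR adjusted p = 1.09e-12). Cyp2s1, a dioxin-inducible P450 of skin and gut epithelium, had 321, 265 and 328 counts in the Prdm16 libraries, against 4, 9 and 14 counts in the puro libraries. It rose by 5.09 ± 0.20 on the log2 scale (edgeR adjusted p = 1.07e-09). Cyp3a13, a drug-metabolising P450 of gut and liver, had 84, 50 and 79 counts in the Prdm16 libraries, against 2, 1 and 2 counts in the puro libraries. Its groups were far apart, with 2.16 ± 0.375 CPM in the Prdm16 libraries and 0.0509 ± 0.0194 CPM in the puro libraries (SD, n = 3 each) and a log2 fold change of 5.33 ± 0.34 (edgeR adjusted p = 8.29e-08). Exons of Cyp2f2 share 274 bases with Gm15883 and those of Cyp2s1 260 bases with Gm26707, both on the other strand, and the sources used here do not state whether counting used strand.

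Markers of mammary epithelium moved in the same direction as these genes, several of which are known from epithelia. All 5 tested of 10 rose, beside 37.5% of all tested genes. Of these, Krt18, Cdh1, Esrp1 and Epcam had 7, 8, 0 and 6 counts over the puro group. They passed the low-count filter through the Prdm16 group alone, so their direction was fixed and the count is a description. The summed level of the 10 was 27.6 to 29.5 CPM in the Prdm16 libraries and 0.677 to 1.01 CPM in the puro libraries. Krt18 had 495, 368 and 441 counts in the Prdm16 libraries, against 0, 3 and 4 counts in the puro libraries, and Cdh1 263, 204 and 236 counts in the Prdm16 libraries, against 2, 4 and 2 counts in the puro libraries. Krt8, Krt14, Krt5, Elf5 and Wap held 0 to 4 counts over a group. The part of such cells in the P450 values was not tested, and in bulk RNA fewer cells of a type and less RNA per cell cannot be told apart.

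Going the other way, Cyp2d22, which is compared with human CYP2D6, had 0.540, 0.656 and 0.689 CPM in the Prdm16 libraries, against 15.4, 14.1 and 15.6 CPM in the puro libraries. It was 23.8-fold lower in the Prdm16 libraries, at −4.58 ± 0.12 (edgeR adjusted p = 5.11e-11), and lies on chromosome 15, whose tested genes had a median of −0.38. The tested epoxygenases of arachidonic acid in family 2J, Cyp2j6 and Cyp2j9, fell. Of the other 2J members, Cyp2j5, Cyp2j11 and Cyp2j12 had 0 counts. Cyp2j8 and Cyp2j13 had 1 and 2 counts over the Prdm16 libraries against 3 and 0 over the puro libraries. Cyp2j6 had 26.4, 26.0 and 26.2 CPM in the Prdm16 libraries, against 48.2, 46.4 and 43.3 CPM in the puro libraries, and its neighbour Cyp2j9 1.59, 1.55 and 1.80 CPM in the Prdm16 libraries, against 11.0, 10.9 and 9.77 CPM in the puro libraries. Both were lower in every Prdm16 library, by log2 fold changes of −0.81 ± 0.051 (edgeR adjusted p = 6.49e-08) and −2.68 ± 0.11 (edgeR adjusted p = 1.70e-09). Cyp2u1, which hydroxylates long-chain fatty acids, had 3.21, 4.15 and 4.64 CPM in the Prdm16 libraries, against 2.55, 2.55 and 2.09 CPM in the puro libraries, a rise of 0.74 ± 0.16 (edgeR adjusted p = 0.00146) without overlap, and 545 of its exonic bases overlap 4930534D22Rik on the other strand. Cyp2c44, an epoxygenase of kidney and vessel, had 10, 12 and 12 counts in the Prdm16 libraries, against 7, 4 and 16 counts in the puro libraries, which overlapped, and a log2 fold change of 0.36 ± 0.45 (edgeR adjusted p = 0.488). Its direction turned without puro replicate 2 (−0.030) and with chromosome medians removed (−0.026). Cyp20a1, an orphan enzyme with no settled substrate, had 33.7, 35.3 and 37.3 CPM in the Prdm16 libraries, against 34.7, 34.1 and 32.5 CPM in the puro libraries. These overlapped, and its log2 fold change was 0.070 ± 0.052 (edgeR adjusted p = 0.245).

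Cyp2b10, the liver P450 that phenobarbital induces, had 7, 8 and 9 counts in the Prdm16 libraries, against 0, 0 and 0 counts in the puro libraries, too low for the test. Its sum of 24 counts puts it at least 8.16-fold higher with 3 counts set for the puro group. Cyp2a12 had 2, 0 and 5 counts in the Prdm16 libraries, against 0, 0 and 0 counts in the puro libraries, and without Prdm16 replicate 3 only 2 counts were left. With Cyp2f2 and Cyp2s1, these were the 4 members of chromosome 7 that held at least 5 counts over a group. Cyp2b10 and Cyp2a12 did so through the Prdm16 group alone, so their direction was fixed by that cut. A further 11 members of that chromosome held fewer than 5 counts in each group or none. Among these, Cyp2b13 had 0 counts over the Prdm16 libraries against 3 over the puro libraries, and Cyp2a22 and Cyp2a5 had 2 and 1 against 0. Cyp2c70 had 2 counts over the Prdm16 libraries against 8 over the puro libraries and Cyp2c55 4 counts over the Prdm16 libraries against 6 over the puro libraries, with counting intervals of their ratios of 0.0264 to 1.28 and 0.141 to 2.87. The classical liver P450 genes were not seen: Cyp1a2, Cyp2e1, Cyp7a1 and Cyp8b1 had 0 counts in all libraries, Cyp1a1 had 1 count in each group, and Cyp3a11 had 1 over the Prdm16 libraries and 0 over the puro libraries. Members of families 2B, 2C, 2D, 2J and 4F are close in sequence, and the sources used here do not state how shared reads were counted, so single values of these families are uncertain.

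**Figure D3:**
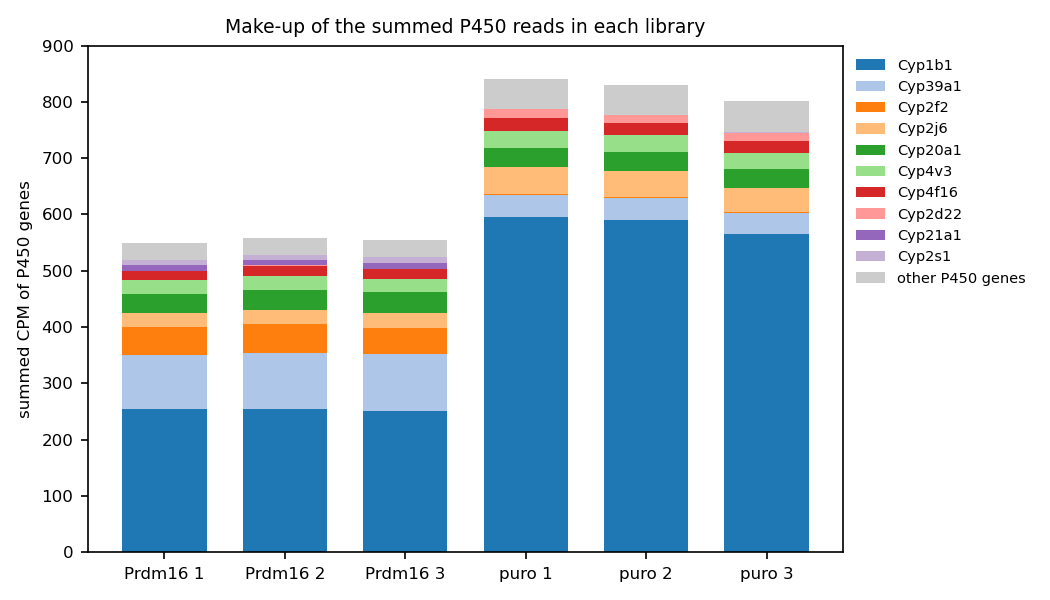
Summed CPM of all 93 P450 genes in each library, stacked by gene, Prdm16 libraries left. The sum was 549 to 559 CPM in Prdm16 libraries and 802 to 839.7 CPM in puro libraries, and Cyp1b1, the lowest segment, was larger in puro libraries.

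The make-up of P450 reads shifted with these changes. The 93 genes together held 549 to 559 CPM in the Prdm16 libraries and 802 to 839.7 CPM in the puro libraries. Cyp1b1 gave 45.3% to 46.4% of that sum in Prdm16 libraries and 70.6% to 71.1% in puro libraries. Without Cyp1b1 the order of the groups turned, with 294 to 305 CPM in the Prdm16 libraries and 236 to 244 CPM in the puro libraries. Cyp39a1 gave 17.6% to 18.3% of the sum in Prdm16 libraries and 4.62% to 4.72% in puro libraries, and Cyp2f2 8.40% to 9.01% in Prdm16 libraries against 0.145% to 0.166% in puro libraries. Per kilobase of exon in the GENCODE M21 annotation, Cyp1b1 had 48.6 CPM per kb in the Prdm16 libraries and 112 in the puro libraries. It was the highest of the 93 genes on that scale in both groups. The next of the 93 in the Prdm16 libraries were Cyp39a1 and Cyp2f2 (32.6 and 26.0 CPM per kb), and in the puro libraries Cyp20a1 and Cyp2j6 (15.2 and 12.8).

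The receptors that are known to control foreign-compound P450 genes changed as well. The aryl hydrocarbon receptor Ahr, which induces Cyp1a1 and Cyp1b1 when bound by dioxin, had 41.7, 52.2 and 47.5 CPM in the Prdm16 libraries, against 11.5, 10.9 and 10.7 CPM in the puro libraries. It was 4.26-fold higher, a log2 fold change of 2.09 ± 0.083 (edgeR adjusted p = 1.39e-09). Cyp1b1 was lower, and the Ahr repressor Ahrr, itself a target, had 18, 20 and 16 counts in the Prdm16 libraries, against 38, 66 and 72 counts in the puro libraries and a log2 fold change of −1.66 ± 0.26. The xenobiotic receptor Nr1i3, which induces Cyp2b10 in liver, had 216, 235 and 261 counts in the Prdm16 libraries, against 0, 3 and 0 counts in the puro libraries. The puro counts lay in 1 library, and the ratio was 242, with a counting interval of 82.5 to 1176. The pregnane receptor Nr1i2 was too low to be tested, with 8 counts over the Prdm16 libraries against 1 over the puro libraries. Of 12 tested genes of this list 7 rose, 4 fell and 1 did not pass (all tested genes: 37.5% higher, 38% lower). The partner Arnt2 (0.89 ± 0.048), the quinone reductase Nqo1 (0.86 ± 0.049), the chaperone Hsp90ab1 (0.28 ± 0.033) and Tiparp (0.25 ± 0.044) were among the other rises. Arnt (−0.34 ± 0.033), the aldehyde dehydrogenase Aldh3a1 (−0.64 ± 0.10) and the glucuronyl transferase Ugt1a6a (−0.25 ± 0.081) fell with Ahrr.

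Of the 6 tested fatty acid hydroxylases of family 4, 5 fell (all tested genes: 38% lower) and Cyp4b1 rose. On chromosome 17, Cyp4f14, which inactivates leukotriene B4, had 4, 2 and 2 counts in the Prdm16 libraries, against 45, 64 and 58 counts in the puro libraries. Each Prdm16 library lay far below each puro library, at a log2 fold change of −4.29 ± 0.30 (edgeR adjusted p = 1.85e-07). Cyp4f17 had 4.63, 4.63 and 3.74 CPM in the Prdm16 libraries, against 9.64, 9.55 and 9.98 CPM in the puro libraries, and Cyp4f13 6.73, 6.98 and 6.53 CPM in the Prdm16 libraries, against 10.7, 11.0 and 12.9 CPM in the puro libraries. Neither overlapped, with log2 fold changes of −1.17 ± 0.097 (edgeR adjusted p = 7.96e-07) and −0.77 ± 0.091 (edgeR adjusted p = 1.37e-05). Cyp4f16 had 17.2, 18.7 and 17.6 CPM in the Prdm16 libraries, against 22.9, 22.0 and 20.7 CPM in the puro libraries, a smaller log2 fold change of −0.30 ± 0.062 (edgeR adjusted p = 0.00116). Cyp4f39, whose human counterpart CYP4F22 makes skin-barrier ceramides, was too low to be tested, with 9, 6 and 7 counts in the Prdm16 libraries, against 0, 1 and 3 counts in the puro libraries. It was higher in each Prdm16 library, in a ratio of 5.61 (counting interval 1.90 to 22.4). Cyp4v3, the mouse counterpart of the retinal lipid enzyme CYP4V2, had 23.3, 24.0 and 23.1 CPM in the Prdm16 libraries, against 30.4, 29.1 and 28.9 CPM in the puro libraries, with a log2 fold change of −0.33 ± 0.049 (edgeR adjusted p = 9.89e-05). Its exons share 313 bases with Gm45753 on the same strand, so its count is uncertain where reads were shared. Cyp4b1, a P450 of lung, had 19, 19 and 13 counts in the Prdm16 libraries, against 0, 0 and 0 counts in the puro libraries. It was read in every Prdm16 library and in no puro library, and so passed the low-count filter through the Prdm16 group alone. It was at least 17.3-fold higher with 3 counts set for the puro group (edgeR adjusted p = 5.14e-05). The PPARα-driven liver genes Cyp4a10, Cyp4a14, Cyp4a31 and Cyp4a32 had 0 counts.

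Enzymes of eicosanoid and epoxide metabolism around families 2J and 4F fell in 8 of 14 tested cases and rose in 5, and 1 did not pass (all tested genes: 37.5% higher, 38% lower). The phospholipase Pla2g4a (−0.64 ± 0.049), leukotriene A4 hydrolase Lta4h (−0.45 ± 0.036), the prostaglandin E synthase Ptges (−0.67 ± 0.056) and the microsomal epoxide hydrolase Ephx1 (−0.36 ± 0.033) fell. The rises were Ptgds (1.50 ± 0.17), Ptges2 (0.55 ± 0.080), the soluble epoxide hydrolase Ephx2 (2.26 ± 0.46, from 11 counts over the puro group), Ptges3 (0.16 ± 0.040) and Hpgd (0.59 ± 0.21). The P450 enzymes of this pathway whose symbols lack the P450 form were too low to be tested. Prostacyclin synthase, Ptgis, had 14 counts over the Prdm16 libraries against 34 over the puro libraries, a ratio of 0.420 (counting interval 0.208 to 0.803), and thromboxane synthase, Tbxas1, had 7 counts over the Prdm16 libraries against 1 over the puro libraries.

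**Figure D4:**
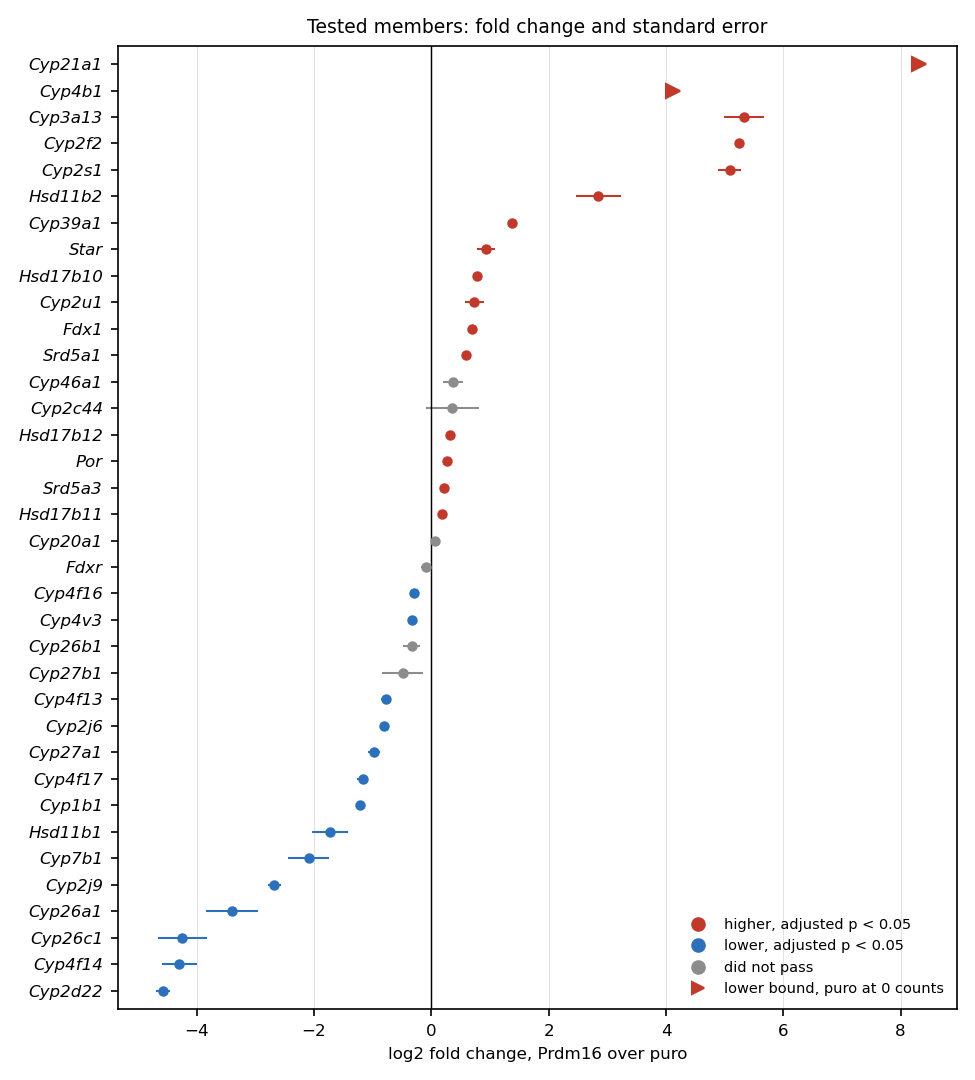
Log2 fold change, Prdm16 over puro, of the 36 tested members with SE as bars, coloured by the call at an adjusted p below 0.05. Triangles stand for Cyp21a1 and Cyp4b1, whose puro libraries held 0 counts, at the lower bound given by 3 counts over the group, and the largest falls were those of Cyp2d22, Cyp4f14 and Cyp26c1.

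Among sterol P450 genes, Cyp39a1 rose, Cyp27a1 and Cyp7b1 fell and Cyp46a1 did not pass. Cyp39a1, an oxysterol hydroxylase that prefers the cholesterol product of Cyp46a1, had 96.4, 101 and 102 CPM in the Prdm16 libraries, against 38.8, 39.2 and 37.1 CPM in the puro libraries. It was 2.59-fold higher without overlap, a log2 fold change of 1.37 ± 0.041 (edgeR adjusted p = 1.37e-10). Cyp46a1, the cholesterol hydroxylase of neurons, had 1.85, 1.76 and 1.80 CPM in the Prdm16 libraries, against 1.23, 1.23 and 1.70 CPM in the puro libraries. Each Prdm16 library lay above each puro library, but the log2 fold change of 0.38 ± 0.17 (edgeR adjusted p = 0.0629) did not pass, and it passed without puro replicate 3 (0.55, adjusted p = 0.0131) and with chromosome medians removed (0.45, adjusted p = 0.0330). Cyp27a1, the mitochondrial sterol side-chain hydroxylase, had 4.80, 5.46 and 4.61 CPM in the Prdm16 libraries, against 9.32, 9.12 and 10.6 CPM in the puro libraries, a log2 fold change of −0.97 ± 0.099 (edgeR adjusted p = 4.41e-06). Cyp7b1, which clears the oxysterols made by Cyp27a1 and Ch25h, had 12, 12 and 6 counts in the Prdm16 libraries, against 26, 61 and 45 counts in the puro libraries. It was lower in each Prdm16 library, at −2.09 ± 0.36 (edgeR adjusted p = 2.59e-04). Among related genes 2 of 7 tested rose, 4 fell and 1 did not pass (all tested genes: 37.5% higher, 38% lower). The bile acid receptor Nr1h4 had 5, 3 and 2 counts in the Prdm16 libraries, against 119, 136 and 133 counts in the puro libraries. Its log2 fold change was −5.20 ± 0.23 (edgeR adjusted p = 3.12e-09), but it passed the low-count filter through the puro group alone. Ch25h, another cholesterol hydroxylase, fell (−1.62 ± 0.19), as did the racemase Amacr (−0.35 ± 0.061) and the oxysterol receptor Nr1h3 (−0.54 ± 0.22). The peroxisomal bile acid oxidase Acox2 (3.43 ± 0.25) and the carrier Scp2 (0.17 ± 0.038) rose. Cyp51, the lanosterol demethylase of cholesterol synthesis, which the naming rule leaves out, rose by 0.47 ± 0.072 on the log2 scale (edgeR adjusted p = 1.17e-04).

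The retinoic acid hydroxylases of family 26, which clear retinoic acid, were lower for the neighbouring pair on chromosome 19. Cyp26a1, whose element is printed above, had 1, 4 and 1 counts in the Prdm16 libraries, against 21, 26 and 21 counts in the puro libraries, and Cyp26c1 2, 1 and 1 counts in the Prdm16 libraries, against 26, 24 and 34 counts in the puro libraries. Neither overlapped between groups, and the log2 fold changes were −3.39 ± 0.44 (edgeR adjusted p = 3.39e-05) and −4.24 ± 0.42 (edgeR adjusted p = 3.33e-06). Prdm16 replicate 2 held 4 of the 6 counts of Cyp26a1 there, and without it the log2 fold change was −4.39. The tested genes of chromosome 19 had a median of 0.39, opposite in direction. Cyp26b1, on chromosome 6, had 1.93, 2.28 and 2.67 CPM in the Prdm16 libraries, against 2.81, 2.95 and 2.89 CPM in the puro libraries. Its Prdm16 libraries were lower without overlap, but the log2 fold change of −0.33 ± 0.14 (edgeR adjusted p = 0.0512) did not pass, and it passed under 4 alternatives, among them leaving out Prdm16 replicate 3 (−0.46, adjusted p = 0.0208). Of the vitamin D enzymes, the activating hydroxylase Cyp27b1 had 15, 8 and 7 counts in the Prdm16 libraries, against 12, 19 and 12 counts in the puro libraries, which overlapped, and a log2 fold change of −0.49 ± 0.35 (edgeR adjusted p = 0.221). Cyp24a1, the inactivating hydroxylase and a target of the vitamin D receptor, had 1 count in each group, and Cyp2r1, which makes the circulating form, had 0 counts in all libraries. The receptor itself, Vdr, had 3.92, 4.18 and 3.89 CPM in the Prdm16 libraries, against 67.9, 64.2 and 69.9 CPM in the puro libraries, so it was 16.9-fold lower in the Prdm16 libraries.

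The reductase Por, which feeds all P450 enzymes of the endoplasmic reticulum, had 244, 229.7 and 243 CPM in the Prdm16 libraries, against 189, 198 and 210.5 CPM in the puro libraries. The groups did not overlap, and the rise was small at 0.26 ± 0.045 (edgeR adjusted p = 2.66e-04). Por lies on chromosome 5 as well, and with chromosome medians removed the call ended, at 0.084 (adjusted p = 0.116). Per kilobase of exon it had 87.6 CPM per kb in the Prdm16 libraries and 73.0 in the puro libraries, more than any P450 gene in the Prdm16 libraries. Its partners divided into 1 higher, 4 lower and 3 not passing of 8 tested (all tested genes: 37.5% higher, 38% lower). The outer mitochondrial cytochrome b5, Cyb5b, had 458, 499 and 487 CPM in the Prdm16 libraries, against 265, 259.9 and 247 CPM in the puro libraries, and the microsomal form Cyb5a 106, 98.2 and 102 CPM in the Prdm16 libraries, against 180.3, 178 and 168 CPM in the puro libraries. The 2 forms moved apart, with log2 fold changes of 0.90 ± 0.043 (edgeR adjusted p = 5.81e-09) and −0.78 ± 0.043 (edgeR adjusted p = 2.56e-08). The haem-binding membrane protein Pgrmc2 (−0.62 ± 0.038) and the reductases Cyb5r1 (−0.23 ± 0.037) and Cyb5r4 (−0.12 ± 0.044) fell. Pgrmc1, Cyb5r3 and Fdx1l did not pass.

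Of 15 tested genes of haem supply 6 were higher, 5 lower and 4 did not pass, near the shares of all tested genes (37.5% higher, 38% lower). Alas1, the first and rate-limiting enzyme of haem synthesis, had 64.2, 63.9 and 66.1 CPM in the Prdm16 libraries, against 94.5, 99.2 and 96.4 CPM in the puro libraries, and Fech, the last enzyme, 82.8, 83.2 and 81.0 CPM in the Prdm16 libraries, against 120.2, 123 and 124 CPM in the puro libraries. Both were lower in every Prdm16 library, with log2 fold changes of −0.58 ± 0.039 (edgeR adjusted p = 1.13e-07) and −0.57 ± 0.036 (edgeR adjusted p = 7.40e-08). The second enzyme Alad (0.52 ± 0.040), the mitochondrial transporters Abcb10 (1.19 ± 0.065) and Abcb6 (0.59 ± 0.064), Cpox (0.21 ± 0.049) and Urod (0.18 ± 0.043) rose. Haem oxygenase Hmox1 (−0.27 ± 0.046), the biliverdin reductase Blvrb (−0.77 ± 0.12) and Ppox (−0.12 ± 0.046) fell. Conjugating enzymes, which act on P450 products, fell in 10 of 15 tested cases (all tested genes: 38% lower) and rose in 4, and 1 did not pass. The glutathione transferases Gstm1 (−1.23 ± 0.044) and Gstm2 (−0.83 ± 0.036) fell, and Sult1a1 (3.81 ± 0.21), Mgst3 (1.24 ± 0.058), Gsta4 (1.01 ± 0.11) and Gstp1 (0.13 ± 0.039) rose.

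By chromosome, the 36 tested members stood on 17 chromosomes. On chromosome 17, which held 7 of them, 2 rose and 5 fell, and on chromosome 5 all 4 rose. The medians of all tested genes were 0.04 and 0.18 there, and over all chromosomes they ran from −0.41 on chromosome 18 to 0.49 on chromosome 14. Besides the 36, 70 members were too low for the test. Of these, 43 had 0 counts in all libraries, 20 held fewer than 5 counts in each group, and 7 held 5 or more in a group and are given above.

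Library totals were 28169059 to 35798201 counts, and Prdm16 itself had 98437, 72525 and 89054 counts in the Prdm16 libraries, against 14, 22 and 25 counts in the puro libraries. Reads of the delivered and the endogenous gene cannot be told apart. Markers of the labelled stromal cells differed between the groups, with 2 of 9 tested higher and 6 lower. Pdgfra averaged 188 CPM in Prdm16 and 199 CPM in puro libraries and did not pass. Col3a1 averaged 1880.1 CPM in Prdm16 and 5007 CPM in puro libraries. Cd34 (−4.10 ± 0.13), Col1a1 (−3.55 ± 0.13), Thy1 (−2.83 ± 0.48), Pdgfrb (−1.50 ± 0.033) and Dcn (−0.25 ± 0.094) fell as well. Ly6a (1.39 ± 0.036) and Lum (2.64 ± 0.45) rose, and Dpp4 and Pi16 held 6 to 17 counts over a group. Adipocyte markers rose for 6 and fell for 1 of 7 tested, with 622 to 729 CPM in Prdm16 libraries and 191 to 206 CPM in puro libraries, mostly Fabp4, and Plin1, Lep and Retn held at most 10 counts over a group. The part of these cells in the results was not tested. Hepatocyte markers were near 0, with 0.760 to 1.02 CPM summed over 9 genes in Prdm16 libraries and 0.268 to 0.487 CPM in puro libraries, 1 of them tested and higher (Apoa2), and Alb, Ttr and Serpina1a at 0 to 1 count. Of macrophage markers 1 of 2 tested fell (Lyz2), with C1qa, C1qb and Emr1 at 0, and of endothelial markers 1 of 4 rose (Tek) and 1 fell (Vwf), with Cdh5 and Cldn5 at 0.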

How the data were processed

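The deposited table holds raw counts per gene symbol, 1 column a library, which the authors made with STAR and featureCounts of Subread on mm9, per the submitters' processing notes; the sources used here give no versions, strand setting or annotation. Library totals were 28169059 to 35798201 counts. Genes were filtered with filterByExpr (13805 of 24197 kept), scaled by TMM and tested with edgeR 4.0.16 (R 4.3.3) by its quasi-likelihood test over all kept genes, 3 Prdm16 against 3 puro libraries with no covariate, with Benjamini-Hochberg adjustment at 0.05. The common coefficient of variation between replicates was 4.78%. The text names every tested member, every untested member with at least 5 counts in a group, and, from each of 11 lists of related genes, up to 4 tested genes with the smallest p and any gene of a direction that holds 5 or fewer. Other list genes, members under 5 counts and markers of the 7 marker lists were named after their values were seen, and a few list genes are counted but not reported here by name. The members and lists were chosen with earlier results of these data known, so counts over them are descriptions. Exonic lengths and overlaps came from GENCODE M21, and chromosomes and promoters from RefSeq, matched by symbol. The GENCODE annotation and the promoters are of GRCm38, another build than that of the counts, and no coordinate was converted. Ratios of low counts have exact 95% binomial intervals. As alternatives, scaling was changed to RLE or upper quartile, the filter was dropped or set to 1 CPM in 3 libraries, and the fit was repeated with DESeq2 1.42.0, limma-voom (limma 3.58.1), with a replicate block, with chromosome medians removed and without each library. The fit was tested on simulated counts.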

Additional observations from a re-analysis of the deposited data

How the results depend on the processing

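Of the 36 tested members, 29 kept their call and direction in each of up to 14 alternatives and 7 did not. Under the removal of chromosome medians the calls of Por (0.084), Srd5a3 (0.033) and Hsd17b11 (0.0017) were lost, since the median of chromosome 5 was subtracted. Cyp26b1 passed under upper-quartile scaling (−0.35), the 1 CPM filter (−0.34), chromosome medians removed (−0.38) and without Prdm16 replicate 3 (−0.46), and Cyp46a1 passed with chromosome medians removed (0.45) and without puro replicate 3 (0.55). The directions of 2 members that did not pass turned, for Fdxr without Prdm16 replicate 2 (0.0037) and for Cyp2c44 with chromosome medians removed (−0.026) and without puro replicate 2 (−0.030); the cause was not tested. Over all libraries left out in turn, Fdxr ran from −0.128 to 0.0037 and Cyp2c44 from −0.030 to 1.04. The median log2 fold change of tested members, 0.13, was 0.033 with no filter and 0.19 with the 1 CPM filter, which test other sets of members, −0.012 with chromosome medians removed, and 0.022 to 0.15 when 1 library was left out. Without puro replicate 2 it was 0.022. With no filter 43 members were too low for the test, against 70. With the replicate number as a block 16 members were higher and 14 lower, as without it. Libraries with the same number had correlations of −0.16, 0.099 and −0.067 in their deviations from the group means, so the number was not taken as a pairing. Members with few counts, such as Hsd11b1, Cyp26a1 and Cyp4b1, limit what can be measured at this depth.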
